A study of Mus musculus with 4 samples.

Results

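LXR target genes were examined in large peritoneal macrophages (LPMs), which reside in the peritoneal cavity, with and without deletion of *Rxra*. The 9 genes were taken by name as established targets of the liver X receptors, and all 9 were present among the 18364 genes of the table. They are *Abca1*, *Abcg1*, *Apoe*, *Lpl*, *Pltp*, *Mylip*, *Srebf1*, *Scd2* and *Lpcat3*. Bulk RNA was sequenced from C57BL/6 mice aged 8 weeks, giving 2 libraries under the WT label and 2 under the Rxra-KO label, after sorting for F4/80 and CD102 and against MHC class II. The labels give the genotypes as wild type and Rxra-/-. According to the methods, *Rxra* was floxed and removed by a Cre recombinase expressed from the *LysM* (*Lyz2*) locus, which acts across the myeloid lineage, and the comparison was with Rxra fl/fl littermates, so that both groups carried the floxed alleles.

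Liver X receptors (LXRs) are nuclear receptors that bind oxysterols and desmosterol, the sterols that build up when a cell holds excess cholesterol. They bind DNA as a pair with a retinoid X receptor (RXR) at a direct repeat of a hexamer with a spacer of 4 bases. In macrophages, which take up the lipids of dying cells, LXR targets export cholesterol, form and remodel lipoprotein particles, limit cholesterol uptake and drive fatty acid synthesis. Without ligand, the pair can also hold targets down through corepressors.

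Recovered depth ranged from 629030 to 1047021 reads per library, and the normalised read count worth 1 read ranged from 0.993 to 1.51. *Rxra* had 20 and 28 reads in WT against 33 and 77 under the Rxra-KO label, so the targeted gene was not lower there, and a value summed over the gene does not resolve the floxed part. All directions given here are therefore between libraries as labelled. *Lyz2*, whose locus carries the Cre driver, fell by 1.03 on the log2 scale (limma adjusted *p* = 0.00163). Calling required an adjusted *p* under 0.05 together with a log2 fold change of at least 0.6 in either direction. Over all genes, limma called 1.32% higher and 0.969% lower. All 6 macrophage markers were present in each library, with 2 of them called lower, *Itgam* and the F4/80 gene listed under its older symbol *Emr1*, and with *Csf1r*, the receptor for the growth factor CSF1, between 1061 and 1637. Of 6 LPM markers, 5 were called lower, and their summed normalised read count was 31268 to 32886 in WT against 16312 to 17783 in Rxra-KO. Genes of small peritoneal macrophages (SPMs), the monocyte-derived macrophages of the cavity, were all higher, 7 of 7 called, with sums of 109 to 366 in WT and 4329 to 5806 in Rxra-KO. The study named that SPM list from these libraries, so it is not independent evidence. The study also reported *Gata6* and *Icam2* of the LPM list as lower in these libraries, so the LPM list is not fully independent either. In bulk RNA, fewer cells of a type and less RNA per cell cannot be told apart, and the part of this shift in the results on LXR targets was not tested.

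To show the sites through which LXR and RXR are known to act, the promoter windows of the RefSeq table for GRCm38.p6 were searched. Each window runs from 250 bases before to 50 bases after an annotated start. Windows were found for 6 of the 9 genes, namely *Abca1*, *Apoe*, *Lpcat3*, *Mylip*, *Pltp* and *Srebf1*, 10 windows in all. The consensus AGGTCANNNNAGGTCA was searched on both strands, with up to 3 mismatches allowed among its 12 fixed letters. It matched in 2 of the 10 windows, those of *Abca1* and of one start of *Srebf1*, against 21.9% of all 32851 windows, so a match at this tolerance is frequent. Both matches lay on the strand opposite to the gene and shared the letters GGGTTACTNNCGGTCA. These shared letters occurred in 3 windows of the whole table. The windows of *Abca1* and *Srebf1* were bound to be among them, since the letters were taken from their matches. The third was that of *Fasn*, the fatty acid synthase gene, which is on the list of other LXR targets described further on. The stretches that hold them are given from 5′ to 3′ along each gene, with the match in capitals:
Abca1, chr4:53159905-53160004, minus strand, 51 bases from match to start: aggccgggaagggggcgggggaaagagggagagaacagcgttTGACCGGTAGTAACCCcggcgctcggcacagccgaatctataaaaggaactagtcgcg
Srebf1, chr11:60210596-60210695, minus strand, 166 bases from match to start: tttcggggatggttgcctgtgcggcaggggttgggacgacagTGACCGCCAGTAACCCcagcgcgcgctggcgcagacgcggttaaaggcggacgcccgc
Fasn, chr11:120824698-120824797, minus strand, 209 bases from match to start: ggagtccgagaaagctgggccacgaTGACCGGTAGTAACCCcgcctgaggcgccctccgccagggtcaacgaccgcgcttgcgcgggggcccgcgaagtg

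The match is a description of these letters and does not show binding. Of the 3 genes that hold it, *Abca1* was called higher in Rxra-KO. *Srebf1*, with 0 to 8 reads per library, was not called, and its 95% interval on the log2 scale, from -0.32 to 2.84, held the value of *Abca1*, 1.42. *Fasn* was not called either, at 18.9 and 28.7 in WT against 23.3 and 16.4 in Rxra-KO (limma adjusted *p* = 0.954). The absence of these letters from the other windows says nothing about LXR binding at those genes, since the windows cover only the start.

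Of the 9 LXR target genes, 3 were called higher under the Rxra-KO label and none was called lower. The called genes were *Abca1*, *Lpl* and *Pltp*, against a background of 1.32% of all genes called higher and 0.969% called lower. The other 6 were *Abcg1*, *Apoe*, *Mylip*, *Srebf1*, *Scd2* and *Lpcat3*. The study had already reported *Abca1*, *Abcg1* and *Lpl* as higher in RXR-deficient LPMs, with a heatmap of LPMs lacking *Rxra*. The count over the 9 genes is therefore not fully independent evidence. Both Rxra-KO libraries lay above both WT libraries for 6 of 9 genes, against 18.8% of all genes. No LXR target lay below in both, against 19.3% of all genes. The median log2 fold change of the 9 genes was 0.93, with a range from -0.39 to 1.42, beside a median of 0.02 over all genes. Fold changes were computed on log2(value + 1), which understates the change of low genes.

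**Figure D1:**
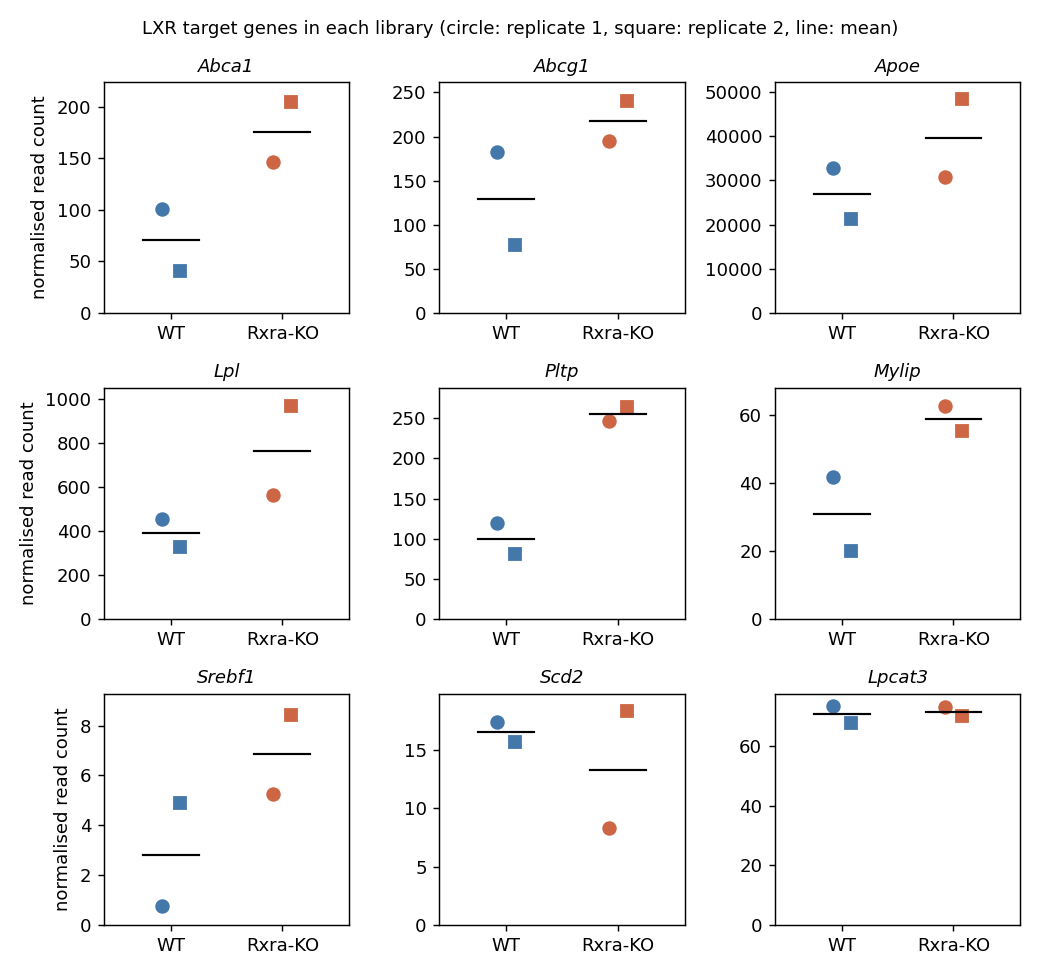
Normalised read count of each LXR target gene in the 2 WT and 2 Rxra-KO libraries, on a linear axis from 0 with its own scale per gene. Circles are replicate 1, squares replicate 2 and lines the group means. Both Rxra-KO libraries of *Pltp* (246 and 265) sit far above WT (119 and 80.8), whereas the libraries of *Apoe*, *Scd2* and *Lpcat3* overlap between groups.

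Cholesterol efflux was represented by *Abca1*, the transporter that loads cholesterol and phospholipid onto lipid-poor apolipoprotein A-I, and *Abcg1*, which passes cholesterol to mature HDL. *Abca1* had normalised read counts of 101 and 40.7 in WT against 147 and 205 in Rxra-KO, from 66, 37, 97 and 206 reads. Both Rxra-KO libraries were above both WT libraries, but WT replicate 1 was more than double WT replicate 2 and lay nearer to Rxra-KO replicate 1 than to WT replicate 2. The mean rose from 70.7 ± 42.4 to 176 ± 41.2 (SD, n = 2), a 2.49-fold ratio of means. The log2 fold change was 1.42 (standard error 0.29, 95% interval 0.85 to 1.99, limma adjusted *p* = 0.00019). It was 0.78 without WT replicate 2 and 1.18 without Rxra-KO replicate 2, and in neither case was the gene called (limma adjusted *p* = 0.388 and 0.16), while the adjusted *p* over all alternatives ranged from 1.45e-06 to 0.562.

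*Abcg1* had normalised read counts of 182 and 76.5 in WT against 195 and 241 in Rxra-KO, from 120, 70, 129 and 242 reads. The groups did not overlap, but the gap between WT replicate 1 and Rxra-KO replicate 1 was small beside the gap between the WT libraries. Its log2 fold change was 0.87 (95% interval 0.35 to 1.39) and it was not called (limma adjusted *p* = 0.0514). The value fell to 0.25 without WT replicate 2 and reached 1.49 without WT replicate 1, where the gene was called (limma adjusted *p* = 0.000921). *Abcg1* was also called with voom (adjusted *p* = 0.0225), with a pseudocount of 5 (limma adjusted *p* = 0.0482), after upper-quartile scaling (limma adjusted *p* = 0.045) and with the replicate number as a block (limma adjusted *p* = 0.00942), but not with edgeR (adjusted *p* = 0.105) or DESeq2 (adjusted *p* = 0.505). The adjusted *p* values of *Abcg1* over all alternatives ran from 0.000921 to 0.906.

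Among the genes of lipoprotein particles and their remodelling, *Pltp* and *Lpl* were called higher. *Pltp* encodes phospholipid transfer protein, which moves phospholipids between lipoproteins. It had normalised read counts of 119 and 80.8 in WT against 246 and 265 in Rxra-KO, from 78, 74, 163 and 266 reads, and the lower Rxra-KO library was about double the higher WT library. The mean rose from 99.8 ± 26.9 to 255 ± 13.1 (SD, n = 2), 2.56-fold, with a log2 fold change of 1.37 (standard error 0.26, 95% interval 0.86 to 1.88, limma adjusted *p* = 4.44e-05). *Pltp* was the only LXR target called whichever library was left out, with log2 fold changes from 1.10 to 1.65 and limma adjusted *p* from 8.05e-05 to 0.0469. It was also called with edgeR (adjusted *p* = 4.72e-05) and DESeq2 (adjusted *p* = 0.00173). It was not called by limma without a mean-variance trend, which gave the highest adjusted *p* of its alternatives, 0.52, against a lowest of 6.72e-07.

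*Lpl* encodes lipoprotein lipase, which releases fatty acids from the triglycerides of lipoproteins and is also a target of PPAR receptors, other partners of RXR. It had normalised read counts of 455 and 327 in WT against 561 and 965 in Rxra-KO, from 300, 301, 372 and 971 reads. The groups did not overlap, and Rxra-KO replicate 2 stood well above the other 3 libraries. The mean rose from 391 ± 90.4 to 763 ± 286 (SD, n = 2), with a log2 fold change of 0.93 (standard error 0.23, 95% interval 0.49 to 1.37, limma adjusted *p* = 0.00375). The value was 0.54 without Rxra-KO replicate 2 and 0.69 without WT replicate 2, and the call was lost in each case (limma adjusted *p* = 0.582 and 0.384), within a range of 3.26e-05 to 0.658 over all alternatives. Adipocytes also express *Lpl*. The 4 of 5 adipocyte markers in the table had summed normalised read counts of 7.59 to 13.6 in WT and 8.94 to 12 in Rxra-KO, and *Adipoq*, the adiponectin gene, was at 0 reads in each WT library and at 1 and 3 in Rxra-KO, at or under the floor of 3 reads.

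*Apoe* encodes apolipoprotein E, the apolipoprotein that macrophages secrete and that carries exported cholesterol. It had the highest mean normalised read count of all 18364 genes. *Apoe* took 3.31% of the reads of WT replicate 1 (95% Wilson interval 3.27 to 3.36), 2.07% of WT replicate 2 (2.04 to 2.1), 3.26% of Rxra-KO replicate 1 (3.22 to 3.3) and 4.65% of Rxra-KO replicate 2 (4.61 to 4.69). The normalised read counts were 32720 and 21239 in WT against 30866 and 48400 in Rxra-KO. The groups overlapped, since WT replicate 1 was above Rxra-KO replicate 1, and the libraries differed far beyond counting error within each group. The log2 fold change was 0.55 (95% interval 0.02 to 1.08) and *Apoe* was not called (limma adjusted *p* = 0.452). Without Rxra-KO replicate 1 it was 0.88 and called (limma adjusted *p* = 0.0308), and without Rxra-KO replicate 2 it was 0.23. With voom the adjusted *p* was 2.38e-14 at a log2 fold change of 0.58, under the fold threshold, and the highest adjusted *p* over the alternatives was 0.942.

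*Mylip* encodes the ubiquitin ligase IDOL, which limits cholesterol uptake by the cell. It had normalised read counts of 41.6 and 20.1 in WT against 62.5 and 55.1 in Rxra-KO, from 27, 18, 41 and 55 reads. Both Rxra-KO libraries were above both WT libraries, but the WT libraries differed by about as much as the group means. The log2 fold change was 0.99 (standard error 0.37, 95% interval 0.26 to 1.73) and *Mylip* was not called (limma adjusted *p* = 0.201). Leaving out WT replicate 2 gave 0.49, and leaving out WT replicate 1 gave 1.5 with a call (limma adjusted *p* = 0.0394, with a highest value of 0.836 among all alternatives).

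Of the 3 genes of fatty acid and phospholipid synthesis, none was called. *Srebf1* encodes SREBP-1, the transcription factor through which LXR drives fatty acid synthesis. It had 0 and 4 reads in WT against 3 and 8 reads in Rxra-KO. Its log2 fold change of 1.26 had a 95% interval from -0.32 to 2.84, and it was not called (limma adjusted *p* = 0.67). *Scd2*, a stearoyl-CoA desaturase that introduces a double bond into saturated fatty acids, had 11 and 14 reads in WT against 5 and 18 in Rxra-KO, with normalised read counts of 17.4, 15.7, 8.28 and 18.4. The Rxra-KO libraries lay on either side of WT, and the log2 fold change of -0.39 (95% interval -1.51 to 0.74) turned to 0.14 without Rxra-KO replicate 1. *Scd2* has close relatives, *Scd1* among them, and the counting could have moved reads between them. *Scd1* had 7 and 11 reads in WT against 4 and 11 in Rxra-KO. *Lpcat3*, which inserts polyunsaturated chains into phospholipids, was the steadiest of the 9 genes, with normalised read counts of 73.4 and 67.8 in WT against 73.0 and 70.0 in Rxra-KO. The log2 fold change of *Lpcat3* was 0.02 and its 95% interval ran from -0.60 to 0.63, which leaves room for a change of up to about the fold threshold in either direction, and it changed sign with the scaling by DESeq2 size factors (-0.0019).

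**Figure D2:**
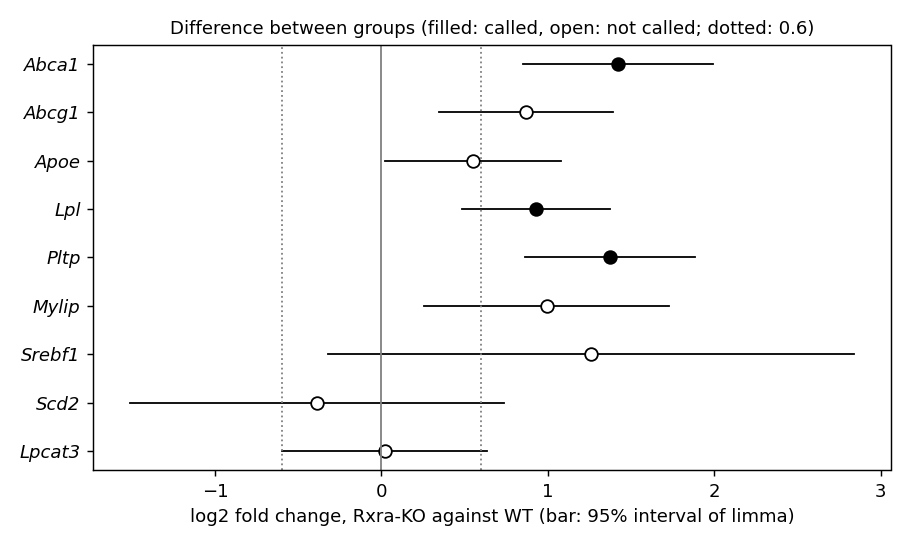
Log2 fold change of each LXR target gene in Rxra-KO against WT, with the 95% interval of limma, where filled points are called and dotted lines mark 0.6. *Abca1*, *Pltp* and *Lpl* are filled, the intervals of *Abcg1*, *Mylip* and *Apoe* lie above 0 without a call, and that of *Srebf1*, from 0 to 8 reads per library, is the widest.

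Levels were compared between genes only per kilobase of the longest protein-coding transcript of each gene in GENCODE M21. The reference used for the deposited table was not settled, so this scale is approximate. In WT the order of mean normalised read counts per kilobase was *Apoe* (19161), *Lpl* (95), *Pltp* (44.9), *Lpcat3* (31.0), *Abcg1* (22.2), *Mylip* (10.1), *Abca1* (6.89), *Scd2* (3.04) and *Srebf1* (0.656). The ranges over the 2 WT libraries overlapped for *Lpcat3* and *Abcg1*, for *Abcg1* and *Mylip*, and for *Mylip* and *Abca1*, so those neighbours did not differ beyond their spread. In Rxra-KO the order was *Apoe* (28148), *Lpl* (185), *Pltp* (115), *Abcg1* (37.4), *Lpcat3* (31.4), *Mylip* (19.2), *Abca1* (17.1), *Scd2* (2.44) and *Srebf1* (1.59). *Abcg1* stood above *Lpcat3* in both Rxra-KO libraries, at 33.4 and 41.3 against 32.0 and 30.7 per kilobase, while *Mylip* and *Abca1* overlapped, as did *Scd2* and *Srebf1*. Levels of the detected targets thus spanned more than 3 orders of magnitude, with *Apoe* far above the rest in each library.

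The WT libraries themselves differed for these genes. WT replicate 1 was above WT replicate 2 for 8 of the 9 genes, the exception being *Srebf1*, against 49.8% of all genes. The median log2 difference of WT replicate 1 from WT replicate 2 was 0.55 over the 9 genes and -0.0035 over all genes. For *Abca1* and *Abcg1* it was 1.29 and 1.24, and for *Lpcat3* and *Scd2* 0.11 and 0.14. Between the Rxra-KO libraries, replicate 1 was above replicate 2 for 2 of the 9 genes, *Mylip* and *Lpcat3*, against 49.6% of all genes. Replicate 2 was higher for the other 7, and the largest difference among the called genes was that of *Lpl*, at 0.78. SPM genes differed between the WT libraries in the same direction, with 6 of 7 higher in WT replicate 1 and sums of 366 and 109. *Mrc1*, a mannose receptor of that list, had 63 and 25 reads in WT against 671 and 744 in Rxra-KO, and no read of *Cd209d* or *Clec4b1* was found in either WT library. The part of SPM-like RNA in the level of the LXR targets was not tested.

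**Figure D3:**
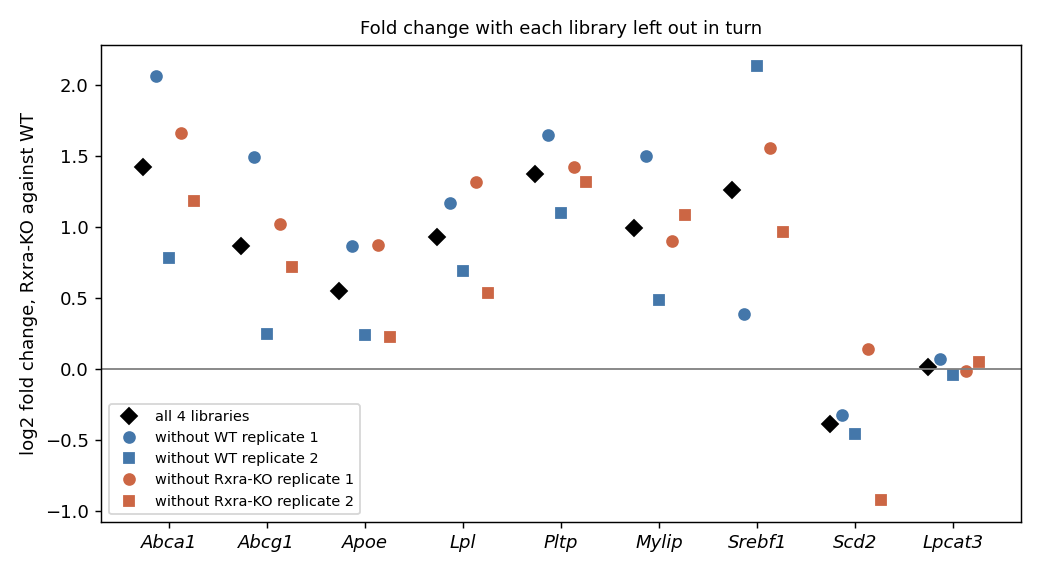
Log2 fold change of each LXR target gene with all 4 libraries (black diamonds) and with each library left out in turn. *Pltp* stays between 1.10 and 1.65, *Abca1* moves from 0.78 to 2.07 and *Abcg1* from 0.25 to 1.49, with the lowest values of both without WT replicate 2, and *Scd2* and *Lpcat3* cross 0.

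Markers of other cell types were compared by their summed normalised read counts. B cell markers summed to 10.6 to 17.4 in WT and 14.9 to 22.6 in Rxra-KO, T cell markers to 41.2 to 43.9 and 34.8 to 60.2, mast cell markers to 20.6 to 21.2 and 12.9 to 18.1, and mesothelial markers to 63.6 to 86.8 and 55.7 to 56.6. Most of the mesothelial sum was *Lrrn4*, with 38 and 70 reads in WT against 31 and 32 in Rxra-KO. Of the neutrophil list only *Retnlg* was in the table, with at most 7 reads in a library. *Cd2* of the T cell list was called higher, from no read in either WT library to 11 and 6 reads in Rxra-KO, while the other T cell genes were not called. *Lck* had 7 and 11 reads in WT against 2 and 0 in Rxra-KO, *Cd3d* had 20 and 21 against 21 and 25, and the libraries of *Cd3e* overlapped. Dendritic cell markers summed to 48.3 to 53.7 in WT and 185 to 189 in Rxra-KO. Of these, 2 of 5 were called higher, *Cd209a* and *Clec10a*, against 1.32% of all genes. *Cd209a* had 14 and 13 reads in WT against 43 and 80 in Rxra-KO, and *Clec10a* had 7 and 10 against 64 and 75. *Flt3*, *Zbtb46* and *Xcr1* were not called, with log2 fold changes of 1.18, 0.35 and 0.10. *Cd209a* and *Clec10a* are also expressed by monocyte-derived macrophages, and the part of such cells in the LXR targets was not tested.

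The receptors themselves were thinly covered. *Nr1h3*, which encodes LXRα, had 1 and 1 reads in WT against 2 and 6 in Rxra-KO, and *Nr1h2*, which encodes LXRβ, had 3 and 2 reads in WT against 0 and 8 in Rxra-KO. The 95% intervals of their log2 fold changes were wide, from -0.56 to 2.61 for *Nr1h3* and from -1.85 to 1.35 for *Nr1h2*. *Rxrb* had normalised read counts of 20.4 and 17.9 in WT against 20.3 and 23.3 in Rxra-KO. Limma called 0 of the 5 LXR and RXR receptor genes, against 1.32% of all genes called higher and 0.969% called lower. The limma unadjusted *p* was under 0.05 for 1 of the 5, *Rxra* (log2 fold change 0.99, adjusted *p* = 0.183), against 1854 of all 18364 genes. Of the 5 receptor genes, edgeR, voom and DESeq2 also called 0.

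A wider list of LXR targets was drawn up from general knowledge, with earlier results of these data known, and its called genes were lower in Rxra-KO. Of 22 listed genes 21 were in the table, 9 had a positive and 12 a negative log2 fold change, and limma called 0 higher and 2 lower, *Mlxipl* and *Cd5l*, against 1.32% of all genes called higher and 0.969% called lower. Both Rxra-KO libraries lay below both WT libraries for 7 of the 21 genes, against 19.3% of all genes. They lay above both WT libraries for 3, against 18.8% of all genes. The median log2 fold change was -0.24. *Mlxipl*, which encodes the carbohydrate-responsive factor ChREBP, had normalised read counts of 111 and 245 in WT against 32.4 and 81.9 in Rxra-KO, which is -1.66 on the log2 scale (limma adjusted *p* = 1.77e-05), and it was not called by DESeq2 (adjusted *p* = 0.426). *Cd5l*, a secreted scavenger receptor protein that limits macrophage apoptosis, had 2487 and 2298 in WT against 1010 and 1623 in Rxra-KO, which is -0.90 on the log2 scale (limma adjusted *p* = 0.00346). The study had already reported *Cd5l* as lower in RXR-deficient LPMs, so its call is not independent evidence. Both calls depended on single libraries. Without Rxra-KO replicate 1 or WT replicate 2 neither gene was called, and without WT replicate 1 *Mlxipl* alone was called. The lipogenic genes *Acaca*, the acetyl-CoA carboxylase gene, and *Elovl5*, a fatty acid elongase gene, lay lower in both Rxra-KO libraries without a call. *Acaca* had 65.9 and 104 in WT against 44.4 and 53.1 in Rxra-KO (limma adjusted *p* = 0.325), and *Elovl5* had 721 and 779 against 523 and 555 (limma adjusted *p* = 0.392). *Mertk*, a receptor for apoptotic cells, had 84.0 and 88.4 in WT against 98.6 and 98.8 in Rxra-KO (limma adjusted *p* = 0.932), and *Npc1*, which moves cholesterol out of lysosomes, had 50.7 and 57.0 against 100 and 69.0 (limma adjusted *p* = 0.503). *Apoc2*, of the same gene cluster as *Apoe*, had 113 and 40.7 in WT against 33.9 and 47.2 in Rxra-KO, so that only WT replicate 1 stood apart, and it was the 1 gene of the list called lower without WT replicate 2.

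Genes that make or clear sterol ligands of LXR were examined next. Of 9 listed genes 7 were in the table. Limma called 0 of them, against 1.32% of all genes called higher and 0.969% called lower. The limma unadjusted *p* was under 0.05 for 1 of the 7, against 1854 of all 18364 genes. edgeR and DESeq2 called 0 and voom called 1, *Cyp27a1*. *Cyp27a1* encodes sterol 27-hydroxylase, which makes 27-hydroxycholesterol, and had normalised read counts of 213 and 220 in WT against 365 and 372 in Rxra-KO. The replicates were close and the groups did not overlap, yet the gene stayed just outside the limma threshold used here, with a log2 fold change of 0.77 (standard error 0.24, 95% interval 0.30 to 1.23, adjusted *p* = 0.0548). The study's own list of genes higher in Rxra-KO did include *Cyp27a1*. *Soat1*, which esterifies cholesterol for storage, did not pass, at 170 and 146 against 136 and 186.

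**Figure D4:**
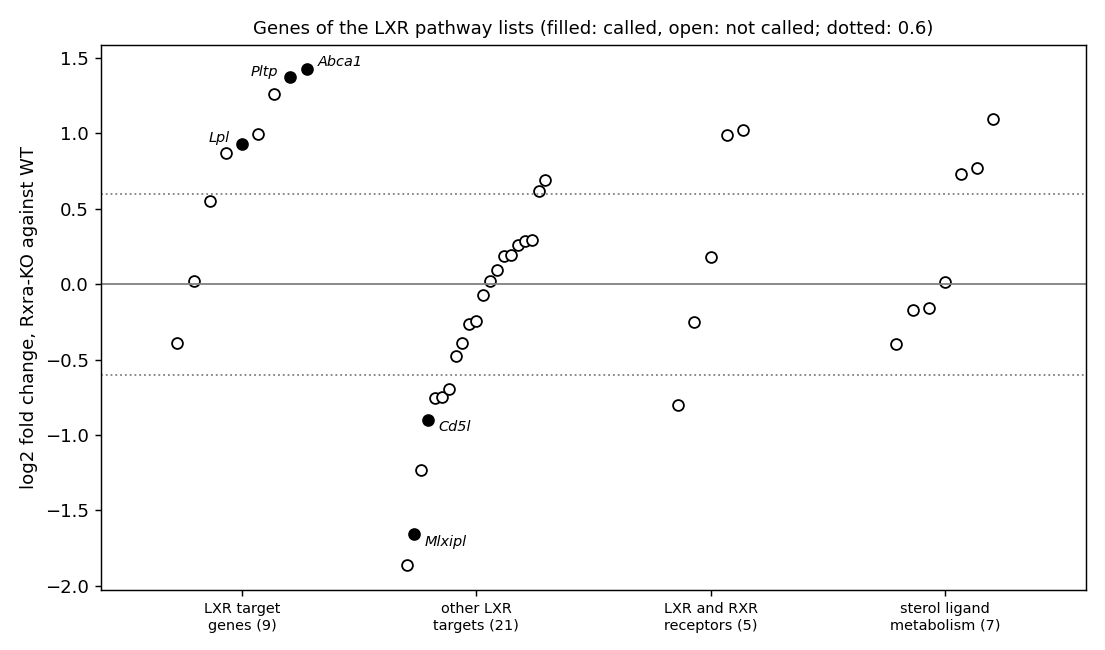
Log2 fold changes of the 9 LXR target genes and of 3 lists of pathway genes in Rxra-KO against WT, where each point is a gene, filled points are called and dotted lines mark 0.6. Called genes lie above 0 among the 9 LXR targets (*Abca1*, *Pltp*, *Lpl*) and below 0 among the 21 other targets (*Cd5l*, *Mlxipl*), and the receptor and sterol ligand lists hold open points only.

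Genes whose pattern over the 4 libraries was most like that of each called LXR target were listed by the Euclidean distance of mean-centred log2 values, among 3467 genes with a mean of at least 50. With 4 libraries, many genes share any pattern, and the list is a description. Nearest to *Abca1* were *Tspan3* (distance 0.23), *Cebpd* (0.44) and *Ehd4* (0.49). *Tspan3* had normalised read counts of 170 and 73.2 in WT against 306 and 357 in Rxra-KO, so it too had a WT replicate 1 of more than double WT replicate 2. Nearest to *Pltp* were *Ehd4* (0.15), *Nrros* (0.16) and *Plec* (0.19), and nearest to *Lpl* were *Morf4l2* (0.15), *Slc25a15* (0.15) and *Mkl2* (0.20). The genes nearest to *Abca1* and *Pltp* were all called higher. Those nearest to *Lpl* were not called, with log2 fold changes of 0.79, 0.95 and 1.02 (limma adjusted *p* = 0.356, 0.136 and 0.085).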

How the data were processed

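The authors prepared cDNA by the SMART-Seq v4 chemistry, without molecular identifiers, and ran them on a NextSeq-500. Per the labels and methods, Kallisto 0.43.0, tximport and limma with TMM scaling were used, with a reference named as GRCh38 although the symbols are mouse. The deposited values are a normalised read signal with 1 column per library, each value being reads plus 0.5 times a step. Whole reads were recovered for 100% of values, to within 5.19e-05 of a whole number.

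Values were fitted as log2(value + 1) with limma 3.58.1 (R 4.3.3) and a mean-variance trend over all 4 libraries and 18364 genes, two-sided, with Benjamini-Hochberg adjustment. A filter of at least 1 in 2 libraries removed 0 genes. edgeR 4.0.16, DESeq2 1.42.0 and voom were run on recovered reads as alternatives, with other pseudocounts, filters and scalings and with each library left out. Replicate numbers follow the titles. Nothing states whether replicates are separate animals or pools, so the spread between these libraries may be technical. The limma p-values take most of their variance from a trend over all genes, not from the replicates of each gene. The exact permutation test of 2 against 2 cannot go below 0.333, and each limma adjusted p rests on 227 prior against 2 residual degrees of freedom. The floor is 3 reads per library. The floor and the Wilson intervals of *Apoe* cover counting error only. The limma intervals of log2 fold changes use the same variance as the limma p-values. *Adgre1* was matched by its older symbol *Emr1*. The genes and lists were chosen with earlier results of these data known. Named genes were the 9 targets, list genes that were called, examples of list genes that were not (chosen after their values were seen) and the 3 nearest profiles. Fits were tested on simulated data. Results on SREBP2 targets are not reported here. Samples that the study left out because they did not group with their condition were not analysed here.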

Additional observations from a re-analysis of the deposited data

How the results depend on the processing

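The count of 3 called LXR targets stayed at 3 or 4 with other pseudocounts, filters, scalings, voom, edgeR and DESeq2. It was 0 without a mean-variance trend, with 2 at an unadjusted p under 0.05, and also 0 when that fit was limited to values of 10 or more, a setting added after the data had been seen. Leaving out a library gave 1 to 5. Over all genes, 421 were called, or 246 with DESeq2, 0 without a trend (1579 at an unadjusted p under 0.05) and 26 in that fit with the filter, and 167 to 381 when a library was left out. The 2 calls among other LXR targets were 1 with DESeq2, 0 in both fits without a trend, and 0 to 2 when a library was left out. The sterol ligand list gained 1 call with voom. For none of these drops was the cause tested.

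*Lpcat3* changed sign with DESeq2 size factors (-0.0019) and DESeq2 (-0.0027) and ran from -0.038 to 0.076 when a library was left out, and *Scd2* ran from -0.92 to 0.14. The log2 fold changes of *Abca1*, *Abcg1*, *Apoe*, *Lpl*, *Pltp*, *Mylip* and *Srebf1* were positive under every alternative run. Leaving a library out leaves 1 library in a group, which is assumed to vary like the other group.

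Replicate numbers did not mark a stated pairing, and the deviations of same-numbered libraries correlated at 0.06 over 10049 genes. With the replicate block, 4 LXR targets were called, *Abcg1* in addition (limma adjusted *p* = 0.00942), 540 genes were called in all, and the sterol ligand list held 1 call, *Cyp27a1*.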
